A study of Mus musculus with 8 samples.

Results

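The 10 genes described here are the forkhead transcription factor genes Foxa1, Foxa2, Foxa3, Foxb1, Foxb2, Foxd1, Foxd2, Foxd3, Foxe1 and Foxe3, chosen by symbol from the 21883 protein-coding genes of the mouse RefSeq annotation. For each gene, every H2AK119ub peak that overlapped the gene span or the 20 kb on either side of it was taken, and paralogs were compared within each of the 4 subfamilies. The study mapped H2AK119ub, histone H2A with a single ubiquitin near its C-terminal end, by ChIP-seq (sequencing of immunoprecipitated chromatin) in progenitors of the basal epidermis sorted from the back skin of newborn mice at postnatal day 0. The series held 2 H2AK119ub libraries and 1 input of Eed cKO mice (genotype Eed-/-), 1 H2AK119ub library and 1 input of Ring1a/b 2KO mice (Ring1a-/- Ring1b-/-), and 2 H2AK119ub libraries and 1 input of control mice. The sources used here do not give the Cre driver, the sex, the litters or any allele shared by the controls. One peak list was deposited for Eed cKO and one for control, so the comparison asked which H2AK119ub regions at these genes were still called without Eed.

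Forkhead proteins bind DNA through a winged-helix domain and direct cell fate in the embryo. Foxa proteins act as pioneer factors that open chromatin in endoderm, Foxb and Foxd proteins work mainly in the nervous system, neural crest and kidney, and Foxe proteins in thyroid, palate and lens. In tissues that do not use them, such genes are typical targets of the Polycomb complexes. Polycomb repressive complex 1 (PRC1) places H2AK119ub through its Ring1a and Ring1b ligases, and Eed is a core subunit of PRC2, which methylates histone H3 on lysine 27 and helps to recruit some forms of PRC1.

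The deposited peaks carried positions alone, with no score or height, and the depth behind them is unknown. The quantities below are therefore peak numbers, widths and covered sequence, without replicate error and without a test, and they compare 2 lists rather than sets of animals. The Eed cKO list held 2541 peaks over 16.6 Mb and the control list 4621 peaks over 29.0 Mb, so each count below is given beside the same count over all protein-coding genes. Fewer reads, another call threshold and less mark cannot be told apart. Of 10 basal keratinocyte markers, including Krt5, Krt14 and Trp63, 0 had a peak within 2 kb of the start, or of a gene end where no strand was known, in either list. Over all protein-coding genes this share was 6.26% in Eed cKO and 10.3% in control, so 0 of 10 lay near it. Within 20 kb of the gene span, 0 of the 10 had a peak in Eed cKO and 1 in control. Within 2 kb, Atoh1, Krt8 and Sox2, 3 of 4 Merkel cell markers, had a peak in both lists. Of 7 foregut and liver endoderm markers, Nkx2-1 and Pdx1 had a peak in both lists and Sox17 in control alone. Within the same 2 kb, Krt1, of 4 suprabasal markers, had a peak in both lists, and Pdgfra, of 4 fibroblast markers, in control alone. Of 4 melanocyte and 4 leukocyte markers, 0 had a peak within 2 kb in either list. Within 20 kb, the suprabasal and the fibroblast sets each had 1 marker with a peak in Eed cKO and 2 in control. The leukocyte set had 0 and 1, the melanocyte set 0 and 0, the Merkel set 3 and 3, and the endoderm set 2 and 3.

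In Eed cKO, 9 of the 10 forkhead genes had a peak in the window, against 14.3% of all protein-coding genes, and in control all 10 did, against 21.2%. Both lists marked 9 of 10, against 11.7% of all genes. Foxa3 was the one without an Eed cKO peak. Of genes with a control peak in the window, 55.0% also had an Eed cKO peak. Each peak counted once, 13 Eed cKO peaks lay in the windows and all 13 overlapped a control peak, against 70.1% of the whole Eed cKO list. Of the 13 control peaks in the windows, 9 overlapped an Eed cKO peak, against 37.9% of the whole control list. These 13 had a median width of 19.1 kb, against 4.33 kb for that list. Neither peaks nor genes were matched for width or control coverage in these comparisons. Foxd2 and Foxe3 are neighbours under the same peaks, so the 10 genes stood for 9 separate loci.

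The sequence under peaks was shorter in Eed cKO at all 10 genes, a direction shared by 67.0% of genes covered in either list. At the 9 genes covered in both lists it was shorter at all 9, against 55.2% of such genes overall. The median over the 10 windows was 11.8 kb in Eed cKO and 27.4 kb in control. For comparison, the 4634 genes with a control peak had medians of 2.22 kb in Eed cKO and 5.70 kb in control. The share of control-covered bases that was also covered in Eed cKO ran from 0% at Foxa3 to 83.3% at Foxe1, with a median of 52.2% over the members and 11.5% over all genes with a control peak. All 3 Foxa genes lay between 0 and 30.9% and the Foxd and Foxe members between 46.2 and 83.3%, with the Foxb pair at 30.4 and 59.8%. Members and all genes with a control peak were not matched for control coverage when these shares were compared. Within 1 kb of the start, the share was 43.0% in the 8 members with a strand. It was 44.5% there in 1115 other genes whose start lay in a control peak.

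**Figure D1:**
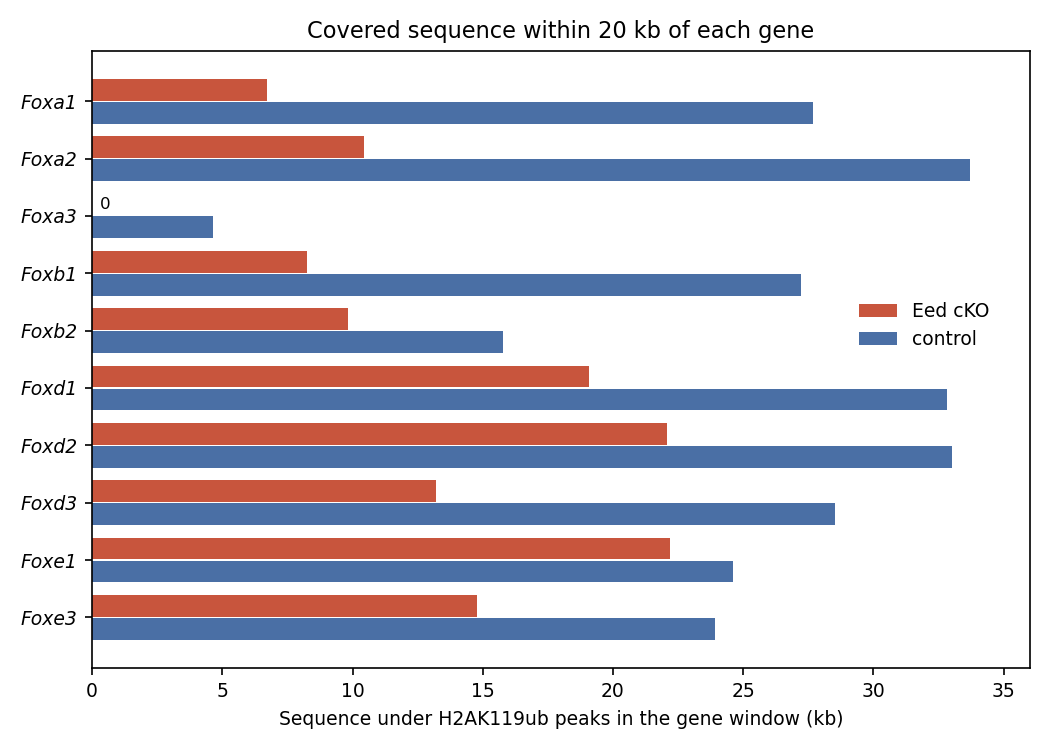
Sequence under H2AK119ub peaks (kb, x axis) in the window of each forkhead gene, with the Eed cKO bar above the control bar. The Eed cKO bar is the shorter one at every gene, is 0 at Foxa3 and comes closest to the control bar at Foxe1 (22.2 against 24.6 kb).

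The Foxa genes encode the pioneer factors of liver, gut, lung and prostate. Foxa1 on chromosome 12 (57540628 to 57548029, minus strand) had a single 6.72 kb Eed cKO peak, chr12:57532403-57539119, against a single 27.7 kb control peak, chr12:57528969-57556638. The Eed cKO peak lay beyond the 3′ end of the gene, from 6.99 to 13.7 kb past the start, and touched 0% of the gene span. The control peak covered the whole gene span and reached from 10.5 kb before to 17.1 kb past the start. The listed start lies inside the annotated span, 57546111 on the chromosome. The control peak also touched Ttc6, a neighbouring protein-coding gene. The 150 bases before the Foxa1 start (chr12:57546112-57546261, minus strand, GRCm38.p6, RefSeq) are shown because this start lay in no Eed cKO peak but inside the control peak. Capitals mark CpG dinucleotides here and below.
Foxa1: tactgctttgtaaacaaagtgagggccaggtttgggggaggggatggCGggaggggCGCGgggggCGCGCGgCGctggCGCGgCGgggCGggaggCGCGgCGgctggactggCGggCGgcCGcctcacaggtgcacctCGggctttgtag

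Foxa2, the factor of the node, notochord, floor plate and definitive endoderm, lies on chromosome 2 (148042877 to 148046969, minus strand). It had 2 Eed cKO peaks of 3.35 and 7.08 kb, against 2 control peaks of 11.3 and 24.7 kb. Both Eed cKO peaks fell inside the wider control peak, on the 3′ side. They covered 55.8% of the gene span in Eed cKO, against 74.6% in control. The other control peak, chr2:148046318-148057639, held the most upstream listed start and met no Eed cKO peak. Upstream of the gene, 0 kb was covered in Eed cKO and 10.7 kb in control. The annotation lists 3 starts for Foxa2, and the other two lay in no peak of either list, within a 1.04 kb gap between the control peaks. At its nearest, an Eed cKO peak lay 1.81 kb from the most upstream start.

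Foxa3, a liver and gut factor, had the least control coverage of the 10 genes. Its window on chromosome 7 (gene span 19013283 to 19023539, minus strand) held 0 Eed cKO peaks, against 2 control peaks of 2.62 and 2.00 kb. The 2.62 kb control peak, chr7:19021213-19023837, lay over the gene start, and the 2.00 kb control peak lay at Irf2bp1, a neighbouring gene. The nearest Eed cKO peak was 381.5 kb from the start. Both Foxa3 control peaks were below the 4.33 kb median width of the control list. The paralogs thus fell into 2 kinds, with broad control domains at Foxa1 and Foxa2 and narrow peaks at Foxa3, and the start lay outside every Eed cKO peak at all 3.

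**Figure D2:**
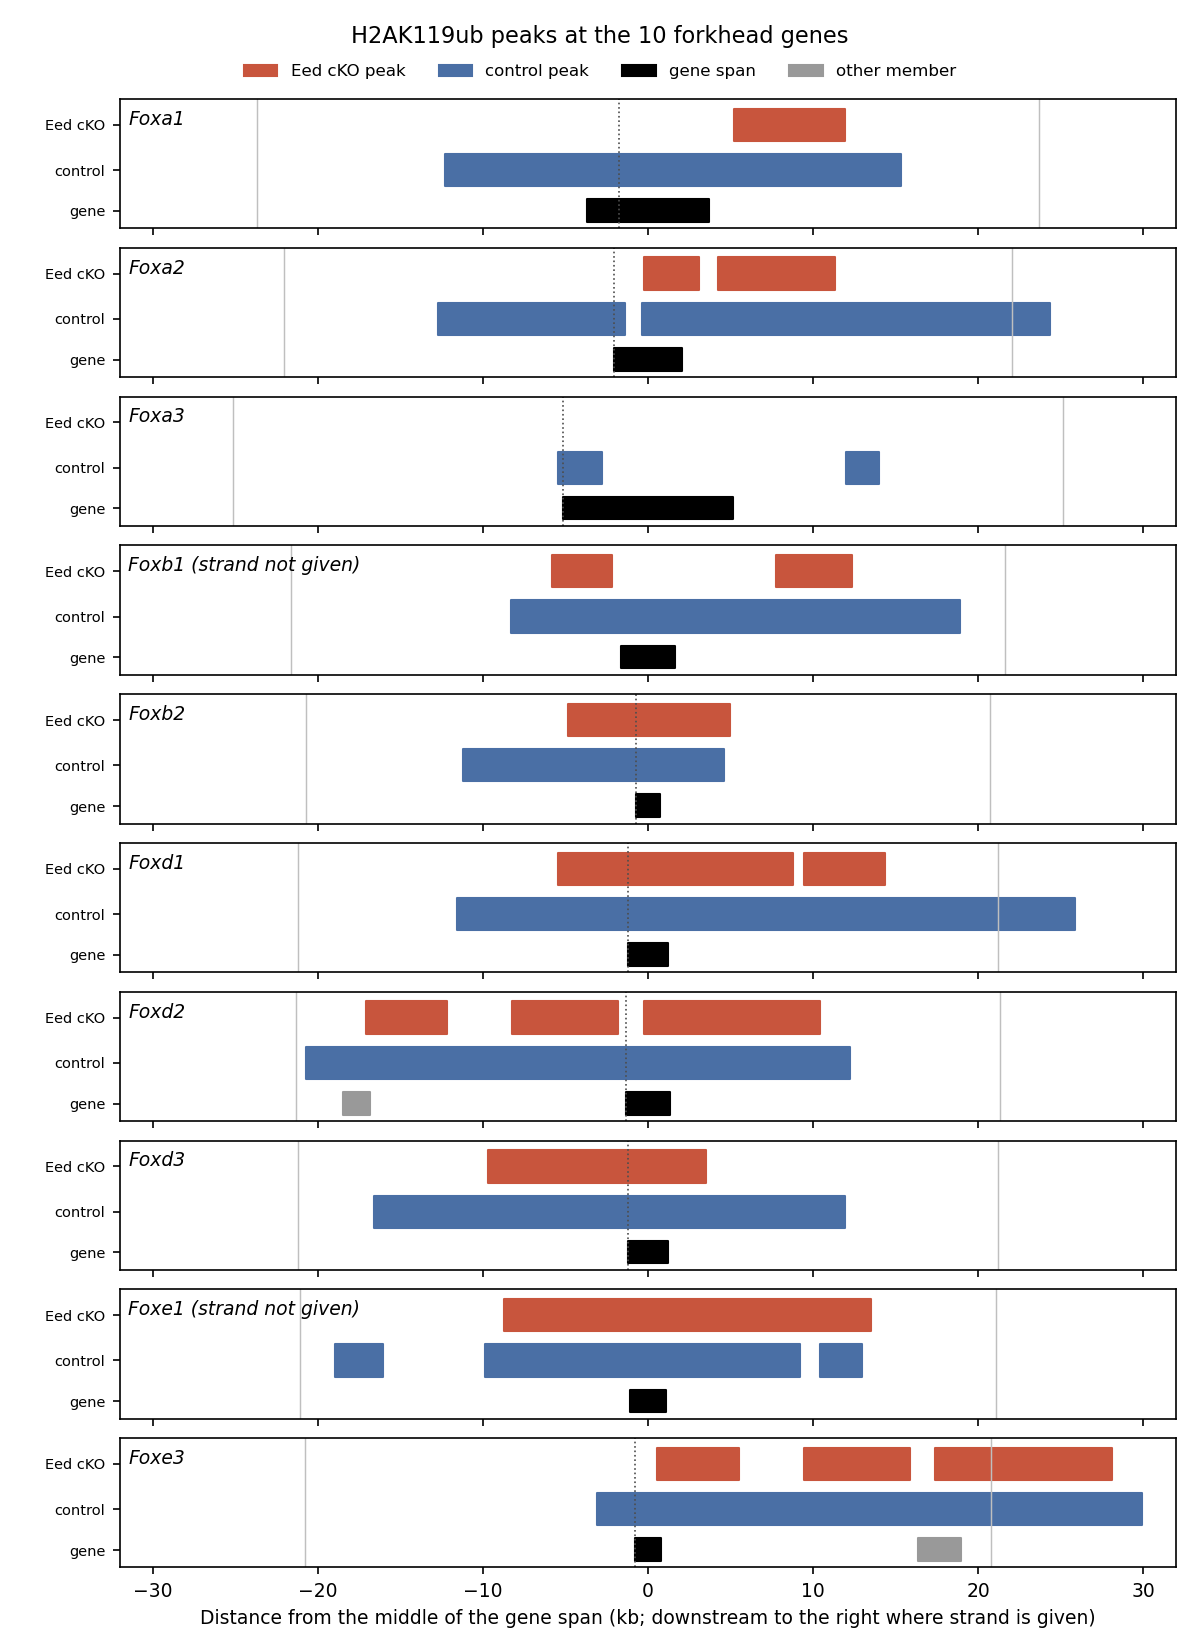
Peaks of the Eed cKO list (upper row of each panel) and the control list (middle row) around each gene span (black, lower row), in kb from the middle of the span, with downstream to the right where strand is given. Grey lines bound the 20 kb windows, dotted lines mark gene starts and grey blocks are the other member at the shared Foxd2 and Foxe3 locus. Eed cKO peaks lie inside or nearly inside the control peaks and cover the start at Foxb2, Foxd1 and Foxd3. They also cover the whole span of Foxe1, for which no strand is given, and leave the gene span bare at Foxa1, Foxa3 and Foxb1.

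The Foxb pair differed in whether Eed cKO peaks covered the gene span. Foxb1, a factor of the hypothalamus and neural tube, lies on chromosome 9 (69757710 to 69760940). It had 2 Eed cKO peaks of 3.67 and 4.60 kb, against 1 control peak of 27.2 kb, chr9:69751021-69778240. The Eed cKO peaks stood on either side of the gene span and covered 0% of it, while the control peak covered 100%. The bare stretch between the Eed cKO peaks was 9.93 kb long and lay entirely under the control peak. Strand was not given for Foxb1, and an Eed cKO peak ended 0.538 kb from the lower end of its span. The control peak also touched the noncoding genes B230323A14Rik and Gm31530.

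Foxb2, its less studied neural paralog, lies on chromosome 19 (16872316 to 16873830, minus strand). It had a single peak in each list, 9.81 kb in Eed cKO (chr19:16868123-16877932) and 15.8 kb in control (chr19:16868489-16884268). Both covered the whole gene span and its start. The Eed cKO peak ended 4.10 kb upstream of the start and the control peak 10.4 kb upstream, while on the 3′ side they ended 5.71 and 5.34 kb past the start. Of control-covered bases, 59.8% were also covered in Eed cKO at Foxb2 and 30.4% at Foxb1. The 150 bases before the Foxb2 start (chr19:16873831-16873980, minus strand) stand for a start that lay inside peaks of both lists.
Foxb2: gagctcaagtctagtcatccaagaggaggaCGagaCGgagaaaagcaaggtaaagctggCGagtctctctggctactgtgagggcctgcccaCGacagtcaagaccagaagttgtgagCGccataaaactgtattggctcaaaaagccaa

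The Foxd members had broad domains in both lists. The widest Eed cKO peak was 14.2 kb at Foxd1, 10.7 kb at Foxd2 and 13.2 kb at Foxd3, which ranked 177, 369 and 218 of 2541 in the Eed cKO list, counted from the widest. The control peaks were 37.5, 33.0 and 28.5 kb wide at these genes and ranked 43, 57 and 98 of 4621 in the control list. Foxd1, a factor of the kidney stroma and retina, lies on chromosome 13 (98354245 to 98356705, plus strand). It had Eed cKO peaks of 14.2 and 4.90 kb separated by 0.669 kb, both inside the control peak chr13:98343872-98381327. The wider Eed cKO peak covered the gene span and ran from 4.20 kb before to 10.0 kb past the start. Upstream of Foxd1, 4.20 kb was covered in Eed cKO and 10.4 kb in control.

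Foxd3, a factor of neural crest and pluripotent epiblast, lies on chromosome 4 (99656299 to 99658671, plus strand). It had 1 Eed cKO peak of 13.2 kb (chr4:99647812-99661007) and 1 control peak of 28.5 kb (chr4:99640896-99669436). The Eed cKO peak lay inside the control peak and covered the gene span. It was shorter on both sides, reaching 8.49 kb upstream in Eed cKO against 15.4 kb in control, and 4.71 kb past the start against 13.1 kb. Of control-covered bases, 46.2% were also covered in Eed cKO at Foxd3 and 58.2% at Foxd1.

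Foxd2, expressed in paraxial mesoderm and kidney, shares a locus on chromosome 4 with the lens gene Foxe3. The locus holds Foxd2 (114906280 to 114908898, minus strand), Foxe3 (114924443 to 114926067, minus strand) and the noncoding genes Foxd2os and Gm33655. In Eed cKO it carried 3 peaks of 10.7, 6.42 and 4.94 kb, parted by gaps of 1.54 and 3.94 kb. In control a single 33.0 kb peak, chr4:114895329-114928340, covered the Foxd2 and Foxe3 spans and touched both noncoding genes. Of this control peak, 66.9% lay under the Eed cKO peaks. The Foxd2 start fell inside the 1.54 kb gap, 0.501 kb from the nearest Eed cKO peak, although 60.1% of the gene span was covered. The 3 Foxd starts are set side by side because Foxd1 and Foxd3 starts lay in peaks of both lists and the Foxd2 start in a control peak alone. The runs are chr13:98354095-98354244 (plus strand), chr4:114908899-114909048 (minus strand) and chr4:99656149-99656298 (plus strand).
Foxd1: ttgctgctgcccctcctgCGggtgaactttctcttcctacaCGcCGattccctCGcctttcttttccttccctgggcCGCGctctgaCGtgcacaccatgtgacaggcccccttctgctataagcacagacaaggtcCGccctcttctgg
Foxd2: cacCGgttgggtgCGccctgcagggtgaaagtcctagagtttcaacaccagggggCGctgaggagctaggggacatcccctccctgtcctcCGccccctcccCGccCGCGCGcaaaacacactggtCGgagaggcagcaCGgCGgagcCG
Foxd3: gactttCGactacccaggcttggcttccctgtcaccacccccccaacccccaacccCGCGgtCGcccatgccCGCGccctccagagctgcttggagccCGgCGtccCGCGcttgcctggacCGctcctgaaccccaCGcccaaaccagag

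Foxd4, the Foxd gene outside the member list, was looked up after the values of the others were seen. Its window held 0 kb under Eed cKO peaks and 14.1 kb under 2 control peaks. At Foxd4, 0% of control-covered bases were thus also covered in Eed cKO, outside the range of the Foxd members.

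In the Foxe pair, Eed cKO peaks covered all of the Foxe1 span and little of the Foxe3 span. Foxe1, a thyroid and palate factor that also acts in hair follicles, lies on chromosome 4 (46343644 to 46345774, strand not given). It had 1 Eed cKO peak of 22.2 kb, chr4:46335999-46358203, against 3 control peaks of 19.1, 2.94 and 2.58 kb. The Eed cKO peak was the widest of the 13 at the members and ranked 48 of 2541 in its list. It overlapped 2 control peaks, 93.9% of the 19.1 kb one over the gene and 100% of the 2.58 kb one to its right, and covered the 1.18 kb between them. The 2.94 kb control peak, 15.0 kb from the gene and touching the neighbouring gene Gm12447, met no Eed cKO peak. At the gene itself the Eed cKO peak was thus wider than the control peak, although the whole window held 22.2 kb in Eed cKO and 24.6 kb in control. The direction for the window turned when narrow peaks were removed, to 3.10 kb more in Eed cKO.

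Foxe3, required in the lens epithelium, lay at the edge of the domain it shares with Foxd2. The Eed cKO peak nearest to it covered 15.8% of the gene span at its 3′ end, while the control peak covered 100%. Its start was 1.37 kb from that Eed cKO peak. Upstream of Foxe3, 0 kb was covered in Eed cKO and 2.27 kb in control. The 150 bases before the start (chr4:114926068-114926217, minus strand) are shown as a second start that lay in the control peak alone.
Foxe3: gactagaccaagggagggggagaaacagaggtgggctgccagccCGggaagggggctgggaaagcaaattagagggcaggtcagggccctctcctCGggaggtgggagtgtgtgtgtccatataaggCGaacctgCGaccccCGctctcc

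Gene starts were then compared directly, for the 8 members with a strand in the promoter table and the 17491 protein-coding genes with one. Left out were Foxb1 and Foxe1, whose spans were covered to 0% and 100% in Eed cKO and both to 100% in control. The start lay inside an Eed cKO peak at 3 of 8 members (Foxb2, Foxd1 and Foxd3), against 3.72% of genes, and inside a control peak at all 8, against 6.42%. Of all starts inside a control peak, 43.4% were also inside an Eed cKO peak, near the share of 3 of 8. An Eed cKO peak lay somewhere in the window at 7 of the 8, and at 4 of these, Foxa1, Foxa2, Foxd2 and Foxe3, the start lay outside it. The same held for 29.4% of 690 genes of that kind. Foxa2 enters these counts by its most upstream listed start, since its other listed starts lay in no peak of either list. Foxd2 and Foxe3 lie under the same peaks and are not separate loci. With 2 kb allowed around the start, or around either end of the span for Foxb1 and Foxe1, the Eed cKO list reached 8 of 10 members, against 6.26% of genes, and the control list reached 10 of 10, against 10.3%. Foxa1 and Foxa3 were the pair not reached in Eed cKO.

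Coverage on either side of the start was compared at matched distances in the 8 members. Within 1 kb of the start, Eed cKO peaks covered 43.1% of positions upstream and 37.5% downstream, against 90.3% and 96.2% in control. Between 1 and 5 kb, Eed cKO peaks covered 45.0% upstream and 70.0% downstream, against 79.1% and 89.7% in control. Between 5 and 10 kb, they covered 13.8% upstream and 47.5% downstream, against 75.0% and 76.0% in control. The share of control-covered positions also covered in Eed cKO was thus higher upstream within 1 kb (47.7% upstream, 39.0% downstream). It was higher downstream from 1 to 5 kb (56.9% upstream, 78.0% downstream) and from 5 to 10 kb (18.3% upstream, 61.2% downstream). Among 1115 other genes with the start in a control peak, this share was 44.3% upstream and 44.7% downstream within 1 kb, 46.8% and 47.3% from 1 to 5 kb, and 44.6% and 46.7% from 5 to 10 kb. In the same genes, Eed cKO peaks covered 43.1% of positions upstream and 44.2% downstream within 1 kb. They covered 28.2% and 35.0% from 1 to 5 kb, and 10.6% and 15.3% from 5 to 10 kb. Coverage in these genes was thus also higher downstream. From 10 to 20 kb, the share of control-covered positions also covered in Eed cKO was 29.1% upstream and 47.9% downstream in the members. It was 39.5% and 37.5% in the other genes. These other genes were not matched to the members for peak width. The member shares pool positions of 8 genes, so a single gene can move them. At 0.9 kb, an Eed cKO peak lay over 4 members upstream and 3 downstream. Of these, the Foxd2 peak ended 0.501 kb before its start. At 3 kb the counts were 4 upstream and 6 downstream, and at 8 kb they were 1 and 4. Of the 1115 other genes, 42.87% had an Eed cKO peak 0.9 kb upstream and 44.75% had one 0.9 kb downstream. At 3 kb these shares were 26.46% and 36.14%, and at 8 kb they were 9.24% and 13.72%. Summed over the 8 members, the 20 kb flanks downstream of the gene held 57.5 kb under Eed cKO peaks and 99.2 kb under control peaks. The upstream flanks held 28.1 kb in Eed cKO and 77.5 kb in control. Part of the Foxd2 upstream flank is the Foxe3 downstream flank, so these sums count that stretch on both sides. The shares from 5 to 10 kb also count part of it on both sides.

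**Figure D3:**
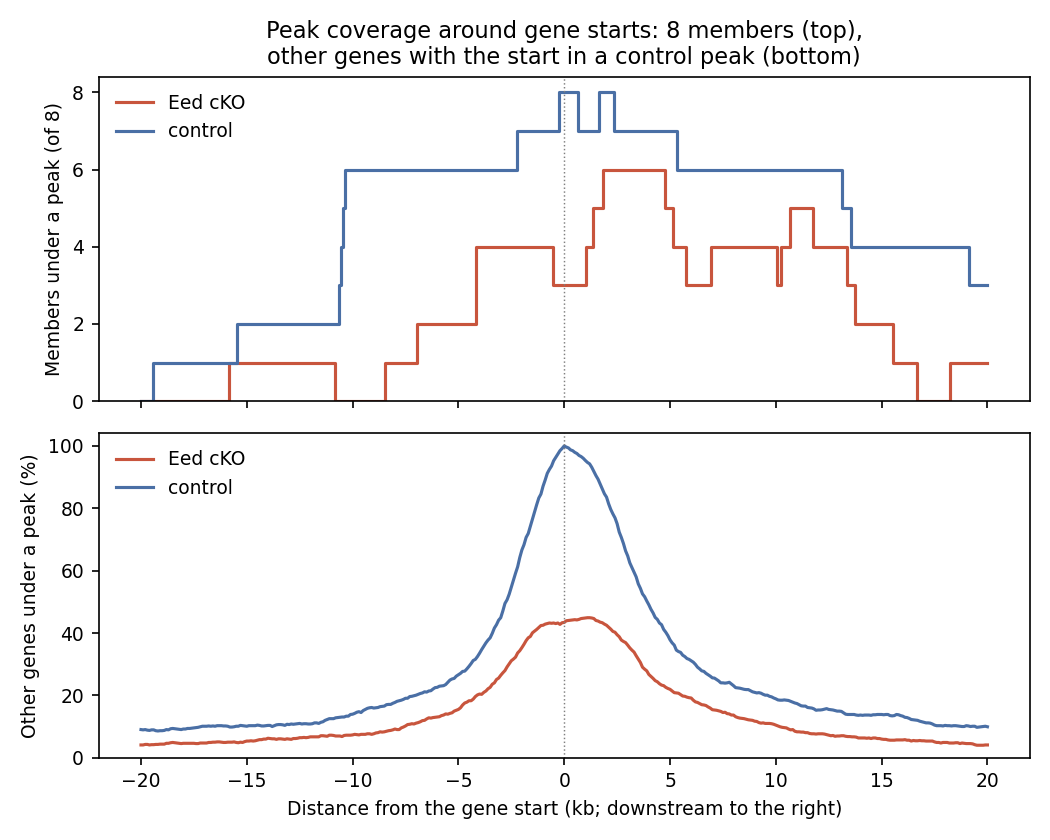
Coverage by peaks from 20 kb before to 20 kb past the gene start (x axis, kb), as the number of members under a peak (top, of 8) and as the percentage of 1115 other genes whose start lay in a control peak (bottom), for the Eed cKO and control lists. In the members the Eed cKO line is at 3 over the start and at 6 near 2 kb downstream, while the control line is at 8 over the start.

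The promoters differed widely in CpG content, and their number of CpGs did not sort the starts by list. In the 250 bases before the start, the members held from 6 CpGs (Foxa2 and Foxe3) to 21 (Foxa1 and Foxd3), with a median of 14, against 10 over all 17491 promoters. The 3 starts inside peaks of both lists had 7 (Foxb2), 12 (Foxd1) and 21 (Foxd3) CpGs. The 5 starts inside a control peak alone had 6, 6, 16, 18 and 21, so the ranges overlapped. Over all genes the medians were 16 for 487 starts in both lists and 15 for 636 starts in control alone. The forkhead core motif TGTTTAC, searched on both strands, occurred in 1 of 8 member promoters, that of Foxa1, where the run above holds its reverse complement gtaaaca, and in 2.57% of all promoters. The TATAAA motif, also searched on both strands, occurred in 1 of 8, that of Foxa3, and in 12.4% of all. Promoters of Foxb1 and Foxe1 were not used here.

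Peak widths were set beside those of the whole lists. The 13 Eed cKO peaks had a median width of 6.72 kb (3.35 to 22.2 kb), against 5.17 kb for their list, and 8 of 13 were at or above the list median. The 13 control peaks had a median of 19.1 kb (2.00 to 37.5 kb), against 4.33 kb for their list, and 9 of 13 were at or above it. The other 4 control peaks, those of Foxa3 and the narrow pair at Foxe1, were 2.00 to 2.94 kb wide. Beyond the 20 kb limit, the closest peak was a 3.18 kb control peak 22.6 kb from Foxa1, and the farthest inside it was the 10.7 kb Eed cKO peak 16.6 kb from Foxe3.

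**Figure D4:**
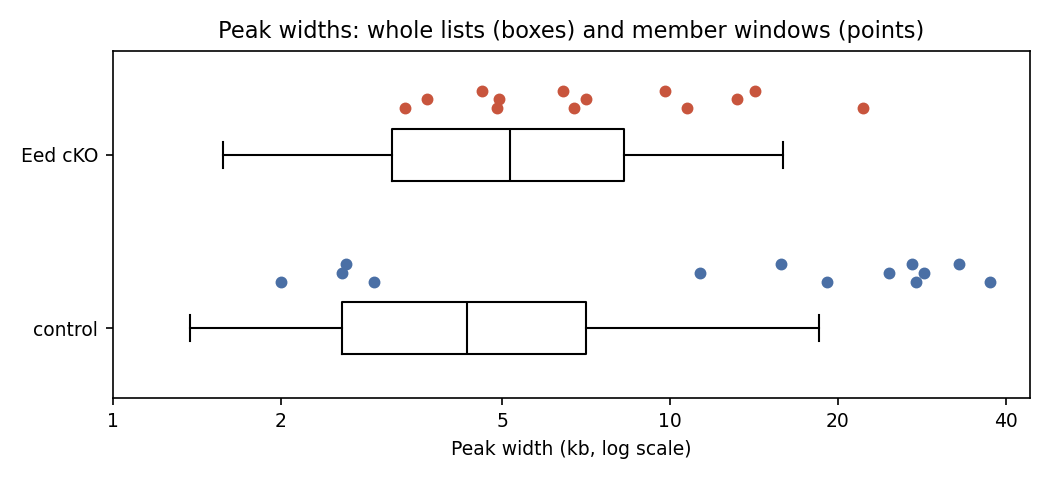
Peak widths (x axis, kb, log scale) of the Eed cKO list (upper) and the control list (lower). Boxes show quartiles and median of each whole list with whiskers at the 5th and 95th percentiles, and points are the 13 member peaks of each list. The Eed cKO points spread from 3.35 to 22.2 kb, while the control points form a narrow group up to 2.94 kb and a wide group from 11.3 kb.

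Of the 34 other forkhead genes found in the annotation, 16 had a peak in the window in Eed cKO and 23 in control, with 14 in both lists, 2 in Eed cKO alone, 9 in control alone and 9 in neither. Among the 23 with a control peak, a median of 42.1% of control-covered bases was also covered in Eed cKO, against 52.2% in the 10 members. The 2 sets were not matched, with median control coverage of 13.3 kb in these genes and 27.4 kb in the members. Foxo6 had 28.9 kb in Eed cKO and 28.6 kb in control. Foxo6 was singled out after its values were seen. Outside the family, the genes closest to Foxa2, the member with the most control-covered sequence, were Wt1, Pax5, Pcgf1, Hoxa9 and Sp6, by the distance between log10 covered bases in both lists. Foxa2 had 10.4 kb in Eed cKO and 33.7 kb in control, and these 5 genes had 10.4 to 11.4 kb in Eed cKO and 32.9 to 36.2 kb in control.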

How the data were processed

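H2AK119ub was measured by ChIP-seq in 5 H2AK119ub libraries with 3 inputs. The deposited files hold other values than counts: the positions of peaks on mm10, 1 list per genotype for Eed cKO and control, per the file headers. The submitters' processing notes name SAMtools 1.9 and the aligner Bowtie2 2.3.3.1. How peaks were called, with which threshold, with or without inputs and on which of the 2 libraries per genotype is not stated in any source used here. No list of the Ring1a/b 2KO genotype was analysed here. Read number and call threshold can change how many peaks a list holds and how wide they are, and both are unknown here.

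Starts were read as counted from 0, as in BED files, and are given from 1. Gene spans, protein-coding status and noncoding neighbours came from the RefSeq annotation of GRCm38.p6, the same assembly as mm10, and strand, starts and promoter sequence from the RefSeq promoter table (GRCm38.p6), which matched 8 of the 10 members. The most upstream listed start was used. An overlap of 1 bp counted. Coverage around starts was read every 100 bp. All 10 members are named, together with protein-coding genes touched by their peaks, other forkhead genes from a written list and the 5 closest genes in coverage. Foxl3 of that list was not found. The members and lists were chosen with earlier results of these data known. With 1 list per genotype no test was made. Values are read beside the same count over all protein-coding genes. The interval functions were tested on simulated data. Scripts ran under Python 3.11.15 with pandas 2.3.3, numpy 2.4.6 and matplotlib 3.10.9. Alternatives were other windows, a 500 bp overlap, wider peaks alone, a control list trimmed to 2541 peaks and merging of peaks within 1000 bp.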

Additional observations from a re-analysis of the deposited data

How the results depend on the processing

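No paired analysis was possible because each genotype has 1 peak list and the files hold no values per library, and leaving out a replicate could not be run for the same reason. Of 45 recomputed counts of members or peaks, 43 stayed within 1.5 times the reported count. The reported counts of members were 8 to 10 of 10, so wider settings could raise them little. Falls were allowed too, as from 10 to 8 members with less covered sequence in Eed cKO under the trimmed control list. With the gene span alone, 6 of 10 members in place of 10 had less covered sequence in Eed cKO than in control, because the spans of Foxb2, Foxd1, Foxd3 and Foxe1 were covered to 100% in both lists. With the peaks at least as wide as their list median, 5 in place of 8 members had an Eed cKO peak within 2 kb of the start. Of 70 recomputed differences in covered sequence per gene, 43 stayed within 1.5 times the reported one, 25 moved further or came to 0 and 2 turned. With 5 kb on either side all 10 moved, for example to -0.801 kb at Foxd1 (reported -13.7 kb), -0.532 kb at Foxb2 (reported -5.97 kb) and 0 kb at Foxe1. At Foxe1 the difference in covered sequence, Eed cKO minus control, was -2.42 kb as reported. It was 3.10 kb with the wider peaks and also 3.10 kb with the trimmed control list, since both settings removed the narrow control peaks of 2.94 and 2.58 kb. These settings also removed both Foxa3 control peaks, which left 0 kb in both lists there. The per-gene alternatives were chosen after seeing the data. Depth limits every value, since a peak missing from a list may have been too shallow to call.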
